A study of Mus musculus with 45 samples.

Results

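In all, 10 genes used as markers of intestinal stem cells were followed through sorted epithelial cells of the embryonic mouse small intestine. They were Lgr5, Tnfrsf19, Lrig1, Ascl2, Msi1, Cdca7, Smoc2, Olfm4, Slc12a2 and Prom1, found by symbol, and all 10 were present among the 23366 genes of the count tables. The 45 libraries formed 15 sorted groups of 3 replicates, and all of them came from animals marked wt on a mixed C57BL/6 CD1 background. Each library was made from polyA RNA of 500 EpCAM+ cells taken by flow sorting, from 3 pooled embryos at E13.5 or from a single embryo at E15.5. A tdTomato label had been started at E9.5 in an Axin2 line or an Id2 line, and the sources used here name neither the driver alleles nor how the label was induced. The Axin2 line was sampled at E13.5, and at E15.5 separately in the anterior and the posterior intestine, and the Id2 line was sampled at E13.5. In each of these 4 settings there were tdTomato+ cells (called labelled here, with no Lgr5 state given), Lgr5- cells without the label and Lgr5+ cells without the label. Lgr5+ labelled cells made a further group in 3 settings, and for the anterior intestine at E15.5 such a group was not analysed here. How Lgr5 was read in the sort is not given.

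Lgr5 is a receptor for R-spondins, ligands that raise Wnt signalling by keeping Wnt receptors on the cell surface. In the adult intestine it marks the dividing cells at the crypt base, which depend on Wnt and Notch signals and give rise to absorptive and secretory cells. Before crypts form, the gut tube is lined by a dividing epithelium from which these cells descend. The other markers are mostly known from adult crypts. They include a transcription factor induced by Wnt (Ascl2), receptors and their regulators (Tnfrsf19, Lrig1), secreted proteins (Smoc2, Olfm4) and membrane proteins (Slc12a2, Prom1).

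Levels are given as CPM, the reads of a gene over all reads assigned to genes in that library, times 1000000. They are not corrected for gene length, so levels of different genes are not compared. Between 16521311 and 19702205 reads were assigned to genes in each of the 33 Axin2 libraries, and between 26888154 and 37729425 in each of the 12 Id2 libraries. The summed level of 8 epithelial markers was between 3415 and 10177 CPM in every library. Fold changes are log2 values with standard errors (SE) from edgeR's quasi-likelihood test, fitted to all 45 libraries and to the 15513 genes that passed a filter on low counts, with Benjamini-Hochberg adjusted p-values called at 0.05. All 10 markers passed that filter. The libraries of a group differed most for Olfm4, with a biological coefficient of variation of 1.18, and least for Cdca7, at 0.169, against a median of 0.376 over the genes tested. The labels do not say beyond the pooling of embryos how replicates were separated, and p-values measure the spread between these libraries. All of these are bulk samples, in which fewer cells of a type and less RNA per cell cannot be told apart.

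RefSeq promoters (build GRCm38.p6, 250 bases before the start) were matched by symbol for 6 of the 10 markers, namely Ascl2, Olfm4, Tnfrsf19, Lrig1, Cdca7 and Prom1. The promoters of Lgr5, Smoc2, Slc12a2 and Msi1 were not matched. Both strands were searched for the TCF/LEF words CTTTGAT and CTTTGTT and for the E-box CAGCTG, which reads the same on both strands. Of 32851 mouse promoters of the same length, 3.21% held CTTTGAT, 5.03% CTTTGTT and 13% CAGCTG. Tnfrsf19 has 2 promoters in the table, and the second held a CTTTGAT on the opposite strand, where it is printed as ATCAAAG, and a CAGCTG. None of the 3 words was in the other promoters of the 6 genes. The promoters below belong to the marker that was higher in Lgr5+ cells (Ascl2) and to the pair of markers that differed in opposite directions along the gut (Olfm4, Tnfrsf19). Capitals mark the matched words, and the strand shown is that of the gene.
Ascl2 promoter, chr7:142969265-142969514, minus strand: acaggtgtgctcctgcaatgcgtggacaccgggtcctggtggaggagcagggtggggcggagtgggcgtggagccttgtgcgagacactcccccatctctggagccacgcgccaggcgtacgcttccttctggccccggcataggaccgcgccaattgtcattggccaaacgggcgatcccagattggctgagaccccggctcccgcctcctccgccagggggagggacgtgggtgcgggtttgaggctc
Olfm4 promoter, chr14:80000052-80000301, plus strand: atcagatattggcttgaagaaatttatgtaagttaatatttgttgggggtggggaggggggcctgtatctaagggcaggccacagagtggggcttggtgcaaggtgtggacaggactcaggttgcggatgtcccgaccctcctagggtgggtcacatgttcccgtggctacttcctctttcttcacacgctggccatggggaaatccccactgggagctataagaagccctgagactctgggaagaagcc
Tnfrsf19 second promoter, chr14:61037988-61038237, minus strand: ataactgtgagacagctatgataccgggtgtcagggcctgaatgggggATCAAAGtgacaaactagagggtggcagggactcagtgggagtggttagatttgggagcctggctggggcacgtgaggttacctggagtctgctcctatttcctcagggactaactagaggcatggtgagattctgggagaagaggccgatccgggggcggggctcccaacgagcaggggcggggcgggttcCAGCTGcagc
In the Tnfrsf19 promoter the first base of the TCF/LEF word lies at -202 and that of the E-box at -10 from the start. A match is a description of these letters only.

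Lgr5 itself was the sort gene, so its levels check the sort. In unlabelled cells of the Axin2 line at E13.5 it stood at 5.79, 0.874 and 7.26 CPM in the Lgr5- libraries and at 94.2, 30.5 and 107 CPM in the Lgr5+ libraries. At E15.5 the anterior Lgr5- libraries held 12.1, 4.39 and 9 CPM and the Lgr5+ libraries 72, 30.7 and 40.8 CPM. The posterior Lgr5- libraries held 16.6, 7.68 and 5.57 CPM against 43.0, 85.4 and 48.8 CPM in the Lgr5+ libraries. The sorted populations did not overlap in any of these settings. The gap was narrower in the Id2 line, with 7.36, 37.9 and 35.0 CPM in the Lgr5- libraries and 57.3, 68.2 and 67.5 CPM in the Lgr5+ libraries. Lgr5 transcript was thus present in the Lgr5- cells of that line, in 2 of 3 libraries at a level above any of the 9 Lgr5- libraries of the Axin2 line. The ratio of Lgr5+ to Lgr5- cells within a replicate number was between 14.7 and 34.9 in the Axin2 line at E13.5, and it was 7.79, 1.8 and 1.93 in the Id2 line.

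Labelled cells lay between those populations in several settings. At E13.5 in the Axin2 line their Lgr5 level was 28.8, 2.91 and 20.5 CPM, and in the Lgr5+ labelled libraries it was 182, 50.5 and 123 CPM. In the posterior intestine at E15.5 the labelled libraries held 29.7, 28.4 and 25.5 CPM and the Lgr5+ labelled libraries 51.9, 89.1 and 41.7 CPM. The anterior labelled libraries held 23.5, 85.4 and 14.7 CPM, a spread that took in the whole anterior Lgr5+ range. The labelled libraries of the Id2 line held 9.57, 6.81 and 29.6 CPM and the Lgr5+ labelled libraries 40.5, 194 and 155.4 CPM. By group mean, Lgr5 was highest in the Lgr5+ labelled cells of the Id2 line (130 ± 79.9 CPM, SD, n = 3) and of the Axin2 line at E13.5 (119 ± 65.8 CPM, n = 3). It was lowest in the Lgr5- cells of the Axin2 line at E13.5 (4.64 ± 3.35 CPM, n = 3). Neighbours in the order of the 15 group means overlapped in their libraries throughout.

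**Figure D1:**
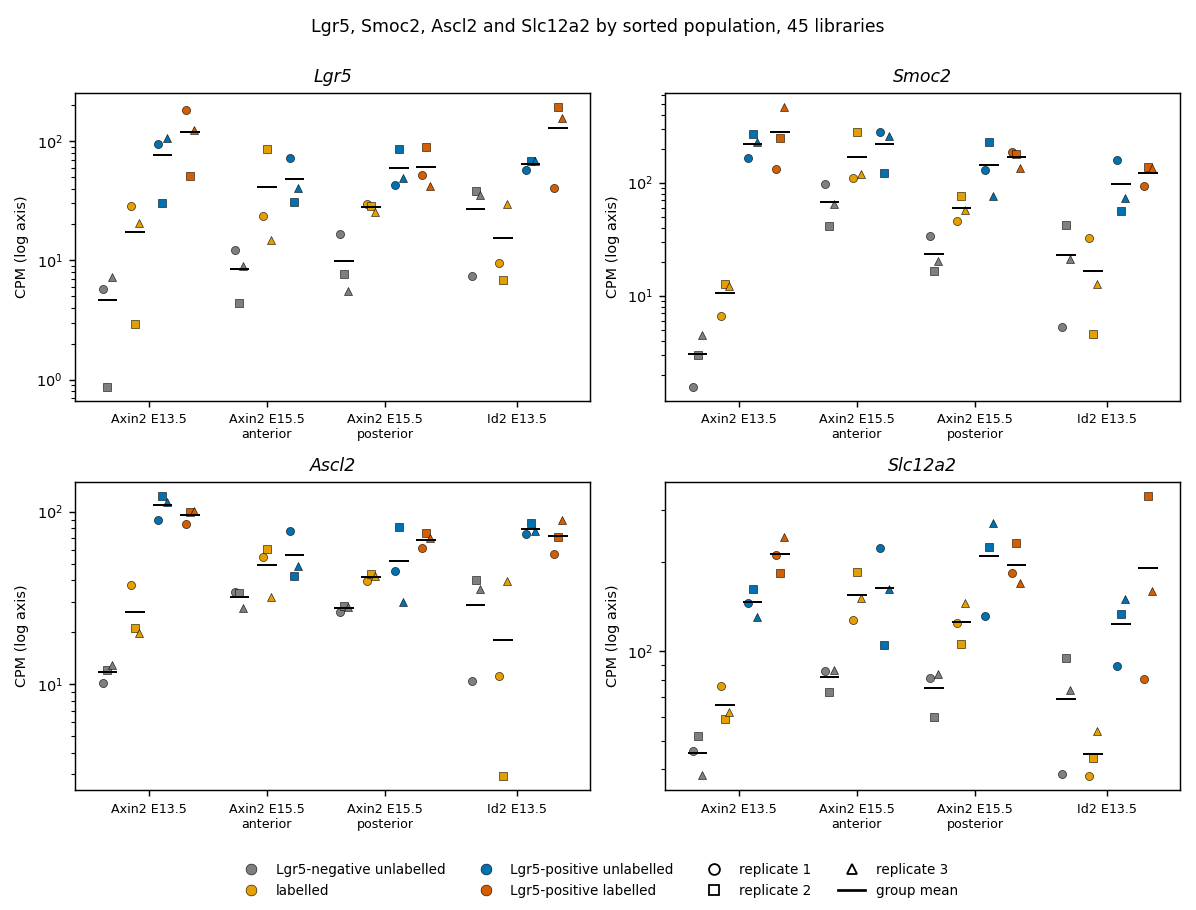
Level of Lgr5, Smoc2, Ascl2 and Slc12a2 in each of the 45 libraries, as CPM on a log axis, by line, stage and gut part. Colours mark the sorted population, symbols the replicate number and bars the group mean of CPM. Lgr5, Smoc2 and Ascl2 were higher in every Lgr5+ library than in any Lgr5- library of the same setting, and Smoc2 in the Lgr5- cells of the Axin2 line lay between 1.57 and 4.5 CPM at E13.5 and between 16.6 and 98.1 CPM at E15.5.

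At E13.5 in unlabelled Axin2-line cells, 3 markers other than the sort gene rose with the Lgr5 gate. Smoc2, a secreted matrix protein that binds calcium, was at 1.57, 2.98 and 4.5 CPM in Lgr5- cells and at 164, 268 and 229 CPM in Lgr5+ cells. Ascl2, a basic helix-loop-helix factor required for adult intestinal stem cells, was at 10.2, 12.1 and 13 CPM against 89.5, 123 and 113 CPM. Slc12a2, a sodium, potassium and chloride cotransporter, was at 46.3, 52.0 and 38.2 CPM against 146, 162 and 131 CPM. Every Lgr5+ library was above every Lgr5- library for each of them, as for Tnfrsf19 and Cdca7, which makes 5 of the 9 markers other than the sort gene, against 10.7% of genes tested. The fitted log2 fold change was 6.17 ± 0.71 (SE) for Smoc2 (adjusted p = 1.45e-06, edgeR), 3.18 ± 0.51 for Ascl2 (adjusted p = 0.000308, edgeR) and 1.65 ± 0.34 for Slc12a2 (adjusted p = 0.00609, edgeR), beside 4.02 ± 0.84 for Lgr5 (adjusted p = 0.00687, edgeR). Higher calls thus took in 3 of the 9 markers other than the sort gene, against 0.438% of all genes tested, and no marker was called lower. The Lgr5 call was set by the sort and is left out of this count and of those for the other gates. The median log2 fold change over the 9 markers was 1.04, and over all genes it was -0.01.

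The ratio within a replicate number varied little in this setting for Ascl2 and Slc12a2 and more for Smoc2. The Lgr5+ level over the Lgr5- level was 8.80, 10.2 and 8.75 for Ascl2 and 3.15, 3.11 and 3.43 for Slc12a2. For Smoc2 it was 105, 89.8 and 50.9. The Lgr5 call was lost without Lgr5- replicate 2, the library with the lowest Lgr5 level (adjusted p = 0.0627, edgeR), and the Slc12a2 call without Lgr5- replicate 3 (adjusted p = 0.0812, edgeR), while the Smoc2 and Ascl2 calls did not depend on any 1 library.

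Markers of other cell types moved with this gate. The summed level of 10 mesenchymal markers was 131 to 165 CPM in the Lgr5- libraries and 462 to 569 CPM in the Lgr5+ libraries. Vim, an intermediate filament gene, made up most of it, at 97.4 to 143 CPM and 429 to 524 CPM, and was the only 1 of the 10 called higher. The collagen genes Col1a1 and Col1a2 were at most 2.93 CPM and Pdgfra at most 1.5 CPM in these 6 libraries, with 0 reads of Pdgfra in at least 1 of them. The summed level of 9 enterocyte markers was 506 to 619 CPM in Lgr5- cells and 263 to 345 CPM in Lgr5+ cells. Further lists did not overlap. Proliferation markers summed to 1786.5 to 2688 CPM in Lgr5- and 2956 to 3211 CPM in Lgr5+ libraries. Liver and pancreas markers summed to 190 to 309 CPM against 98.3 to 133 CPM. Goblet cell markers were at 23.8 to 54.9 CPM against 12.7 to 18.2 CPM, and stomach markers at 4.89 to 10.1 CPM against 1.9 to 4.27 CPM. The 8 epithelial markers summed to 5973.5 to 7814 CPM against 5572 to 5695 CPM. The part of all these lists in the marker differences was not tested.

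At E15.5 the fitted gate differences of Smoc2 and Ascl2 were smaller than at E13.5, and the Lgr5- cells held more of both. In the anterior intestine Smoc2 was at 98.1, 41.0 and 64.6 CPM in Lgr5- cells and at 281, 121 and 259 CPM in Lgr5+ cells. Ascl2 was at 34.1, 33.9 and 27.7 CPM against 77.4, 42.6 and 48.3 CPM. Slc12a2 was at 85.6, 73.0 and 86.4 CPM against 224, 105 and 162 CPM. The populations did not overlap for any of these, nor for Cdca7, which makes 4 of 9 markers against 5.46% of genes tested. The fit called none of them: the share of genes called was 0%, and the adjusted p of each marker was 1 in edgeR. The log2 fold change was 1.66 ± 0.57 for Smoc2, 0.77 ± 0.48 for Ascl2 and 0.96 ± 0.34 for Slc12a2. Unadjusted p-values were below 0.05 for 4 of the 9 in edgeR, and neither DESeq2 nor limma voom called a marker. The share of all genes with such an unadjusted p was not counted, here or in the comparisons below. Counts by unadjusted p are therefore a description only, and no result is read from them. The summed enterocyte level was 2392 to 2928 CPM in Lgr5- and 1143 to 2351 CPM in Lgr5+ libraries, and the mesenchymal level was 16.9 to 22.7 CPM against 39.2 to 81.5 CPM. Their part in the marker values was not tested.

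In the posterior intestine at E15.5, Smoc2 was at 33.7, 16.6 and 20.4 CPM in Lgr5- cells and at 129, 227 and 76.6 CPM in Lgr5+ cells. It was the 1 marker called, with a log2 fold change of 2.50 ± 0.59 (adjusted p = 0.0478, edgeR), where 0.329% of genes tested were called higher. That call was lost when any 1 of the 6 libraries was left out, with adjusted p-values in edgeR between 0.0669 and 0.369. Slc12a2 was at 81.5, 59.9 and 83.8 CPM against 132, 225 and 270 CPM, with a log2 fold change of 1.36 ± 0.34 (adjusted p = 0.064, edgeR). Ascl2 was at 26.3, 28.3 and 27.8 CPM against 45, 81.0 and 30.1 CPM, so that Lgr5+ replicate 3 lay just above the Lgr5- libraries. The libraries of 6 of the 9 markers did not overlap, against 21.3% of genes tested. The median log2 fold change over all genes in this comparison was 0.12, or 0.11 with the RLE scaling, and fold changes here are read against that shift.

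Markers of 7 other cell types or states, blood among them, differed between the posterior libraries without overlap. Goblet cell markers summed to 332 to 1141 CPM in Lgr5- and 1589 to 1942 CPM in Lgr5+ libraries, and enteroendocrine markers to 224 to 332 CPM against 599 to 1786 CPM. Enterocyte markers summed to 927 to 1256 CPM against 505 to 780.5 CPM, mesenchymal markers to 52.3 to 89.3 CPM against 134 to 225 CPM, and neural crest markers to 8.34 to 12.6 CPM against 12.7 to 58.0 CPM. Of these lists, no gene was called in this comparison in edgeR. Proliferation markers summed to 1772 to 1992 CPM against 2439 to 3199 CPM. The 8 epithelial markers were lower in Lgr5+ libraries, also without overlap, at 8952 to 10177 CPM against 7259 to 8410 CPM. Of all single genes tested, 21.3% were higher in Lgr5+ libraries without overlap. The summed level of 8 blood markers was 4.72 to 8.76 CPM in the Lgr5- libraries, and it was 1896, 11.3 and 1696 CPM in Lgr5+ replicates 1, 2 and 3. Embryonic globins made up most of it, with Hbb-bh1 at up to 854 CPM. The Smoc2 levels of the same replicates are given above. The part of blood and of the other lists in the Smoc2 value was not tested.

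The change of the gate effect with stage was tested as a difference of differences. For Smoc2 the log2 gate effect, averaged over both gut parts, was lower at E15.5 than at E13.5 by a difference of -4.09 ± 0.75 (adjusted p = 0.00779, edgeR), where 0.168% of genes tested were called in either direction. Its level in Lgr5+ cells was 220 ± 52.3 CPM (SD, n = 3) at E13.5, 220 ± 86.6 CPM in the anterior and 144 ± 76.2 CPM in the posterior intestine at E15.5. In Lgr5- cells it was 3.02 ± 1.47, 67.9 ± 28.7 and 23.6 ± 8.96 CPM in the same order. The ranges of the Lgr5+ libraries overlapped between stages, and those of the Lgr5- libraries did not. Ascl2 had a difference of -2.39 ± 0.59 (adjusted p = 0.087, edgeR) and Lgr5 of -1.57 ± 0.92 (adjusted p = 1, edgeR). The Smoc2 call was lost without Lgr5- replicate 1 of E13.5 (adjusted p = 0.0503, edgeR).

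In the Id2 line at E13.5 no marker was called between unlabelled Lgr5+ and Lgr5- cells, where 0.477% of genes tested were called in edgeR. Smoc2 was at 5.26, 42.0 and 21.0 CPM in Lgr5- cells and at 160, 56 and 73.5 CPM in Lgr5+ cells. Ascl2 was at 10.5, 40.4 and 35.5 CPM against 74.0, 86.5 and 77.3 CPM. For both genes the first Lgr5- library was the low one, as it was for Lgr5. The log2 fold change was 2.08 ± 0.58 for Smoc2 (adjusted p = 0.097, edgeR), 1.48 ± 0.48 for Ascl2 (adjusted p = 0.18, edgeR) and 0.88 ± 0.33 for Slc12a2 (adjusted p = 0.27, edgeR). Unadjusted p-values were below 0.05 for 3 markers, DESeq2 called Smoc2 alone (2.23% of genes) and limma voom called none. The libraries of 3 of the 9 markers did not overlap (Smoc2, Ascl2 and Tnfrsf19), against 3.7% of genes tested. The summed level of 10 liver and pancreas markers was 900 to 3030 CPM in the Lgr5- libraries and 207 to 322 CPM in the Lgr5+ libraries. Enterocyte markers summed to 662 to 1106 CPM against 243 to 455 CPM, goblet cell markers to 86.4 to 122 CPM against 24.6 to 37.8 CPM, mesenchymal markers to 247 to 333 CPM against 448 to 1050 CPM and proliferation markers to 1514 to 2850 CPM against 2984 to 3992 CPM. The part of these lists in the marker values was not tested. The difference between the lines in the gate effect was -4.08 ± 0.85 for Smoc2 (adjusted p = 0.27, edgeR), and 0% of genes tested were called. Of the 10 markers 3 had an unadjusted p below 0.05 there, DESeq2 called Smoc2 (0.278% of genes), and limma voom called none.

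Lgr5+ labelled cells were compared with the labelled cells, whose Lgr5 state is not given. In the Axin2 line at E13.5 Smoc2 was at 6.54, 12.7 and 12.2 CPM in labelled cells and at 132, 246 and 469 CPM in Lgr5+ labelled cells. Slc12a2 was at 76.6, 59.2 and 62.4 CPM against 211, 184 and 242 CPM. Ascl2 was at 37.7, 21.0 and 19.7 CPM against 85.2, 99.7 and 100 CPM. The groups did not overlap for any of the 3 genes, nor for Tnfrsf19 and Lrig1, which makes 5 of 9 markers against 7.81% of genes tested. Smoc2, Slc12a2 and Ascl2 were the 3 markers called higher, against 0.503% of genes tested, with log2 fold changes of 4.74 ± 0.66 for Smoc2 (adjusted p = 9.71e-05, edgeR), 1.66 ± 0.34 for Slc12a2 (adjusted p = 0.00777, edgeR) and 1.83 ± 0.49 for Ascl2 (adjusted p = 0.0475, edgeR). Lgr5 had 2.75 ± 0.78 (adjusted p = 0.059, edgeR). The Ascl2 call was lost in 5 of 6 fits that left out 1 library, and the Slc12a2 call without labelled replicate 2 or 3 (adjusted p up to 0.0571, edgeR). All 3 calls were lost when these 6 libraries were fitted alone, with adjusted p-values in edgeR of 0.094 for Smoc2, 0.0883 for Slc12a2 and 0.113 for Ascl2. The summed mesenchymal level was 300 to 360 CPM in the labelled libraries and 1584, 567 and 215 CPM in Lgr5+ labelled replicates 1 to 3. Proliferation markers summed to 2218 to 2477 CPM in labelled and 2703 to 2800.2 CPM in Lgr5+ labelled libraries, and liver and pancreas markers to 201 to 221 CPM against 53.9 to 94.2 CPM. The part of these lists in the marker differences was not tested.

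In the Id2 line too, labelled cells had lower levels of these markers than Lgr5+ labelled cells. Smoc2 was at 32.1, 4.54 and 12.6 CPM in labelled cells and at 94.0, 138 and 136 CPM in Lgr5+ labelled cells. Slc12a2 was at 38.0, 43.8 and 53.7 CPM against 80.6, 334 and 160 CPM. Ascl2 was at 11.1, 2.92 and 39.7 CPM against 56.8, 71.0 and 89.1 CPM. The groups did not overlap for these 3 genes, which makes 3 of 9 markers against 4.32% of genes tested. Labelled replicate 2 was the lowest library of the 45 for Ascl2, and it held 1 read of Tnfrsf19 (0.0344 CPM). Higher calls took in the same 3 of 9 markers against 0.67% of genes tested, with log2 fold changes of 2.09 ± 0.35 for Slc12a2 (adjusted p = 0.000498, edgeR), 2.99 ± 0.61 for Smoc2 (adjusted p = 0.00728, edgeR), 2.01 ± 0.49 for Ascl2 (adjusted p = 0.0278, edgeR), beside 3.09 ± 0.79 for the sort gene Lgr5 (adjusted p = 0.0387, edgeR). Without labelled replicate 2 the Smoc2 call was lost (adjusted p = 0.0629, edgeR), and the Slc12a2 call held in all 6 fits that left out 1 library. The Lgr5 and Ascl2 calls each held in 2 of these 6 fits. All of these calls were lost with limma voom (adjusted p from 0.212 for Slc12a2 to 0.7 for Lgr5) and when the 6 libraries were fitted alone in edgeR (adjusted p from 0.334 for Smoc2 to 1 for Ascl2). The summed mesenchymal level was 44.6 to 217 CPM in labelled and 467 to 1401 CPM in Lgr5+ labelled libraries, with Vim called higher. Enterocyte markers summed to 802 to 1287 CPM against 306 to 384 CPM, liver and pancreas markers to 470.5 to 957 CPM against 241 to 256 CPM, goblet cell markers to 102 to 176 CPM against 13.4 to 76.2 CPM and proliferation markers to 1500 to 2760.0 CPM against 2865 to 3794 CPM. The part of these lists in the marker differences was not tested.

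In the posterior intestine at E15.5 no marker was called between Lgr5+ labelled and labelled cells, and 0% of genes tested were called in edgeR. Smoc2 was at 45.9, 76.7 and 56.9 CPM in labelled cells and at 187, 180 and 135.4 CPM in Lgr5+ labelled cells, with no overlap. Ascl2 was at 39.6, 43.5 and 42.2 CPM against 61.3, 75.3 and 70.2 CPM, also with no overlap. The libraries of 4 of the 9 markers did not overlap, against 6.17% of genes tested. An unadjusted p below 0.05 was found for 1 marker, limma voom called Smoc2 (0.219% of genes), and DESeq2 called none. Goblet cell markers summed to 920.3 to 1635 CPM in labelled and 1988 to 2915 CPM in Lgr5+ labelled libraries, and enterocyte markers to 738 to 1007 CPM against 508 to 552 CPM. Mesenchymal markers summed to 58.3 to 90.7 CPM against 91.3 to 128 CPM, and liver and pancreas markers to 114 to 126 CPM against 161 to 203 CPM. Proliferation markers summed to 2101 to 2252 CPM against 2299.5 to 3274 CPM. The part of these lists in the marker values was not tested.

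**Figure D2:**
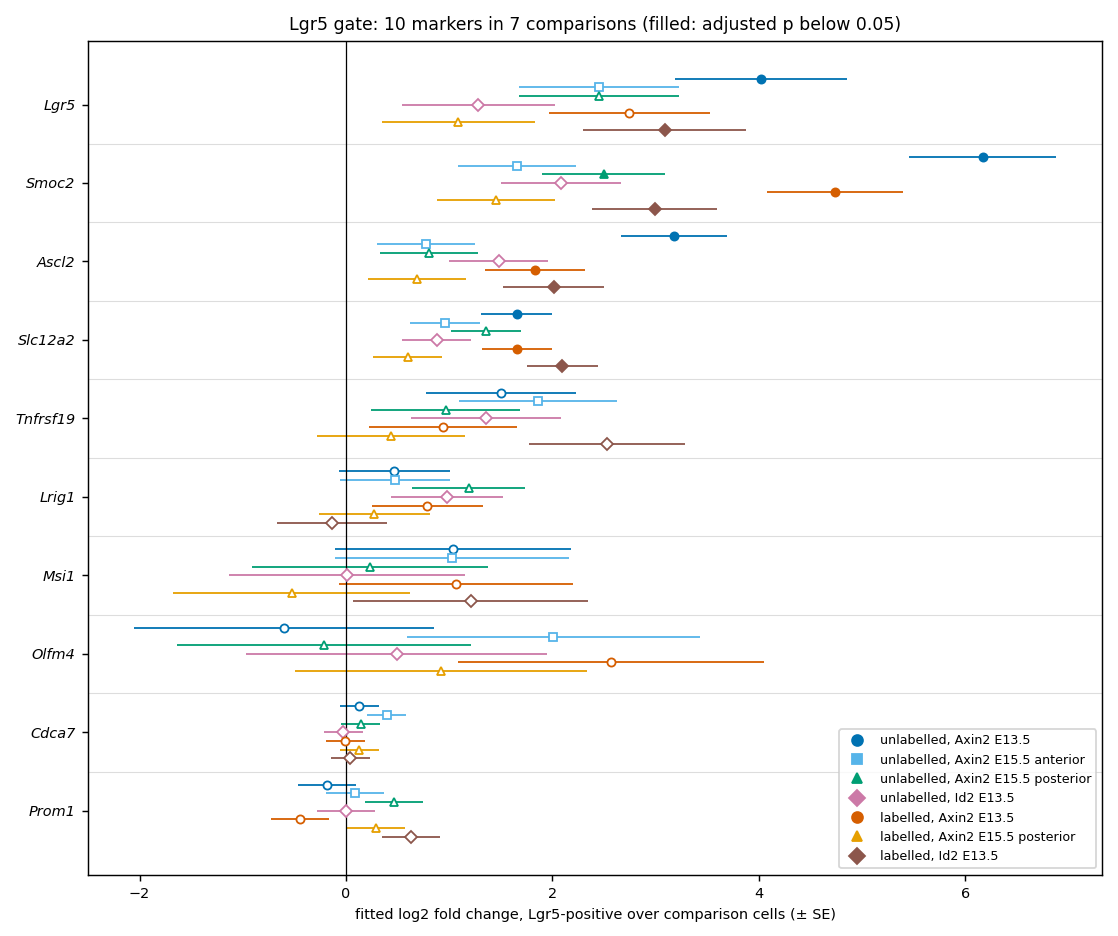
Fitted log2 fold changes with their SE for the 10 markers in 7 comparisons of Lgr5+ cells with Lgr5- unlabelled cells or with labelled cells; filled symbols have an adjusted p below 0.05. Smoc2 has the largest fitted value, 6.17, and the values of Cdca7 and Prom1 lie between -0.45 and 0.63, none of them called; the Olfm4 value for labelled Id2 cells is not drawn because all 3 Lgr5+ labelled libraries held 0 reads.

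Within Lgr5+ cells the label made no difference that passed the test for any marker. These comparisons reuse the Lgr5+ libraries of the gate comparisons. In the Axin2 line at E13.5, 0.322% of genes tested were called, and the log2 fold change of labelled over unlabelled Lgr5+ cells was 0.59 ± 0.73 for Lgr5, 0.34 ± 0.56 for Smoc2 and 0.51 ± 0.33 for Slc12a2. No marker had an unadjusted p below 0.05 there in edgeR, and DESeq2 and limma voom called none. The libraries did not overlap for Slc12a2 and Lrig1, higher in labelled cells, against 6.82% of genes tested, and for Cdca7, lower in labelled cells, against 14.1% of genes. In the other settings the libraries of all 10 markers overlapped. In the posterior intestine at E15.5, 0% of genes were called, no marker had an unadjusted p below 0.05 in edgeR, and neither other tool called a marker. In the Id2 line 0.0387% of genes tested were called, Lgr5 had 1.02 ± 0.73, and 1 marker had an unadjusted p below 0.05. DESeq2 called Olfm4 in that comparison (0.943% of genes), where Lgr5+ labelled cells held 0 reads in all 3 libraries, and limma voom called none. Olfm4 was also near the floor in Lgr5+ unlabelled cells, at 0.782 ± 1.32 CPM (SD, n = 3), with 0 to 87 reads per library.

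Labelled cells were also set against Lgr5- unlabelled cells, with both groups reused from the comparisons above. No marker was called in edgeR, where 0% of genes tested were called in all settings of the Axin2 line and 0.00645% in the Id2 line. Unadjusted p-values were below 0.05 for 2 of the 9 markers other than Lgr5 in the Axin2 line at E13.5, for 3 in the anterior and 2 in the posterior intestine at E15.5, and for none in the Id2 line. Of the same 9, the libraries of 3 did not overlap and were higher in labelled cells at E13.5 (5.09% of genes tested), as were those of 3 in the anterior (7.67%) and 5 in the posterior intestine (11.3%). DESeq2 called no marker in any of the 4 settings, and limma voom called Tnfrsf19 at E13.5 in the Axin2 line alone (2.22% of genes). Smoc2 in labelled cells stayed above every Lgr5- library in the 3 Axin2 settings, with the closest values at 6.54 against 4.5 CPM at E13.5, 109 against 98.1 CPM in the anterior and 45.9 against 33.7 CPM in the posterior intestine. In the Id2 line the labelled libraries overlapped the Lgr5- libraries for all 10 markers.

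Of the other receptors, Tnfrsf19 (also known as Troy), a tumour necrosis factor receptor family member, was at 12.6, 33.8 and 9.90 CPM in Lgr5- cells and at 48.9, 61.4 and 51.4 CPM in Lgr5+ cells of the Axin2 line at E13.5. The populations did not overlap, and the log2 fold change of 1.5 ± 0.73 was not called (adjusted p = 0.87, edgeR). In the Lgr5+ labelled cells of the Id2 line it was at 10.9, 42.7 and 34.7 CPM against 3.90, 0.0344 and 11.5 CPM in labelled cells, with 2.53 ± 0.76 (adjusted p = 0.084, edgeR). Lrig1, a membrane protein that restrains ErbB receptors, was at 4.70, 18.7 and 10.7 CPM in Lgr5- cells and at 14.7, 18.6 and 14.4 CPM in Lgr5+ cells at E13.5, where the groups overlapped. Lrig1 lies opposite Slc25a26 in the annotation (GENCODE M21), and with no strand setting given their reads cannot be told apart.

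Cdca7, a nuclear protein of dividing cells, was called with no gate. In the anterior intestine at E15.5 it was at 275 to 280 CPM in Lgr5- and at 334 to 399 CPM in Lgr5+ cells, without overlap. In the posterior intestine it was at 253 to 286 CPM in labelled and 289 to 327 CPM in Lgr5+ labelled cells, also without overlap. The libraries overlapped for Cdca7 in the unlabelled posterior gate, the labelled Axin2 gate at E13.5 and both Id2 gates. In the Axin2 line at E13.5 it was at 333, 381 and 367 CPM in Lgr5- cells and at 386, 420 and 402 CPM in Lgr5+ cells, with a log2 fold change of 0.13 ± 0.19 (adjusted p = 1, edgeR). Prom1, the pentaspan membrane protein known as CD133, had -0.18 ± 0.28 there (adjusted p = 1, edgeR). Both genes had lower levels in the Id2 line. At E13.5 Cdca7 ranged from 311 to 420 CPM in the 12 Axin2 libraries and from 103 to 225 CPM in the 12 Id2 libraries. Prom1 ranged from 69.5 to 161 CPM in the Axin2 libraries and from 42.0 to 141 CPM in the Id2 libraries, where 11 of 12 were at or below 86.2 CPM. The lines also differed in depth and in the share of reads not assigned to genes, and no test of the line was made. Msi1, an RNA-binding protein that acts in Notch signalling, was at 0 to 2.58 CPM and at most 46 reads in the 45 libraries and was called in no comparison in edgeR, with an unadjusted p below 0.05 in 0 of the 18, and neither DESeq2 nor limma voom called it.

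Between stages 6 of the 10 markers passed the test, where 33.5% of all genes tested did. The comparison took the mean of labelled, Lgr5- unlabelled and Lgr5+ unlabelled cells of the Axin2 line, with both gut parts at equal weight at E15.5 (9 libraries at E13.5, 18 at E15.5). The E13.5 libraries came from pooled embryos with no gut part given, the E15.5 libraries from single embryos. These differences cannot be told apart from stage. Slc12a2 had its lowest, median and highest values at 38.2, 62.4 and 162 CPM at E13.5 and at 59.9, 126 and 270 CPM at E15.5. It rose by a log2 fold change of 0.78 ± 0.17 (adjusted p = 0.000456, edgeR). Lrig1 ranged from 4.70 to 18.7 CPM at E13.5 and from 6.84 to 46.2 CPM at E15.5 and rose by 0.79 ± 0.28 (adjusted p = 0.0255, edgeR). Smoc2 rose by 2.28 ± 0.32 (adjusted p = 5.49e-07, edgeR), the mean of populations that differed in this change as described above.

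Cdca7 fell from 311, 381 and 420 CPM to 224, 280 and 401 CPM (lowest, median and highest), with a log2 fold change of -0.29 ± 0.09 (adjusted p = 0.0151, edgeR). Tnfrsf19 fell from 9.90, 33.8 and 61.4 CPM to 0.470, 12.1 and 36.7 CPM, with -1.5 ± 0.35 (adjusted p = 0.00077, edgeR). Its mean was 34.5 CPM at E13.5, and 6.10 CPM in the anterior and 23.2 CPM in the posterior intestine at E15.5. The posterior range, 9.93 to 36.7 CPM, lay within that of E13.5. Lgr5 and Ascl2 were not called, with 0.51 ± 0.38 (adjusted p = 0.33, edgeR) and 0.42 ± 0.24 (adjusted p = 0.19, edgeR). For Ascl2 that value averages populations that moved in opposite directions. Its mean in Lgr5+ unlabelled cells was 108.7 CPM at E13.5, and 56.09 CPM in the anterior and 52.01 CPM in the posterior intestine at E15.5. In Lgr5- cells it was 11.74, 31.91 and 27.48 CPM in the same order. Libraries of the stages did not overlap in either population, while those of labelled cells did. The change within a population was not tested. The 3 sorted populations were set by the gate, so this comparison of Lgr5 bears on levels within a gate and not on how many cells passed it. In fits that left out 1 library, Smoc2, Slc12a2 and Tnfrsf19 stayed called in 27 of 27. The Lrig1 call was lost without Lgr5- replicate 1 of E13.5 (adjusted p = 0.07, edgeR), the Olfm4 call without posterior labelled replicate 1 (adjusted p = 0.0552, edgeR), and the Cdca7 call in 4 of the 27.

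Olfm4, a secreted glycoprotein that marks stem cells in the human intestine, had the largest fitted difference of the 10 markers along the gut. At E15.5 the anterior libraries held 27.9, 46.9 and 20.4 CPM in labelled cells, 25.6, 11.2 and 16.2 CPM in Lgr5- cells and 127, 18.5 and 74.9 CPM in Lgr5+ cells. The posterior libraries held 6.74, 0 and 0.174 CPM in labelled cells, 3.16, 1.5 and 1.88 CPM in Lgr5- cells and 3.50, 0.805 and 1.8 CPM in Lgr5+ cells. Every one of the 9 anterior libraries lay above every one of the 9 posterior libraries. With the same 3 populations at E13.5 the range was 0.309 to 2.46 CPM, within the posterior range at E15.5. Over both parts Olfm4 rose with stage by 2.70 ± 0.81 (adjusted p = 0.00876, edgeR), and from anterior to posterior it fell, with -3.99 ± 0.90 (adjusted p = 0.00591, edgeR). At E13.5 Lgr5+ labelled replicate 1 of the Axin2 line stood apart at 23.0 CPM beside 0.425 and 0.116 CPM in the other replicates. That library also held the highest mesenchymal level of its group and 118 CPM of blood markers. In the Id2 line all 3 Lgr5+ labelled libraries held 0 reads of Olfm4, which allows up to 3 reads, or 0.0828 to 0.108 CPM, in each, by counting error only.

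Tnfrsf19 was distributed the other way. The anterior libraries held 6.76, 12.7 and 4.48 CPM in labelled cells, 1.51, 0.470 and 4.61 CPM in Lgr5- cells and 4.49, 11.5 and 8.28 CPM in Lgr5+ cells. The posterior libraries held 21.6, 25.7 and 22.0 CPM in labelled cells, 18.7, 16.1 and 9.93 CPM in Lgr5- cells and 26.9, 31.3 and 36.7 CPM in Lgr5+ cells. Within each population the parts did not overlap. The log2 fold change of posterior over anterior was 2.09 ± 0.43 (adjusted p = 0.00221, edgeR). Tnfrsf19 and Olfm4 were 2 of the 3 markers called between the gut parts, where 3.64% of genes tested were called, and both calls held in all 18 fits that left out 1 library. Of the promoters printed above, the second of Tnfrsf19 held 1 TCF/LEF word and 1 E-box, and that of Olfm4 held none of the words. The first Tnfrsf19 promoter, not printed, held none either. A link between these words and the levels along the gut was not tested.

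Smoc2 was the third marker called and fell from anterior to posterior, with -1.21 ± 0.33 (adjusted p = 0.026, edgeR). Its lowest, median and highest values were 41.0, 119 and 282 CPM in the 9 anterior libraries and 16.6, 56.9 and 227 CPM in the 9 posterior ones, ranges that overlapped widely. That call was lost in 8 of 18 fits that left out 1 library, with adjusted p-values up to 0.0853 in edgeR. Lrig1 had 28.8 ± 10.6 CPM (SD, n = 9) in the anterior and 17.6 ± 9.73 CPM (n = 9) in the posterior libraries, a log2 fold change of -0.75 ± 0.31 (adjusted p = 0.24, edgeR). Lgr5 did not differ beyond its error, with -0.01 ± 0.43 (adjusted p = 1, edgeR). Enterocyte markers were lower in the posterior libraries, with 5 of 9 called, and the part of such cells in the marker values was not tested.

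**Figure D3:**
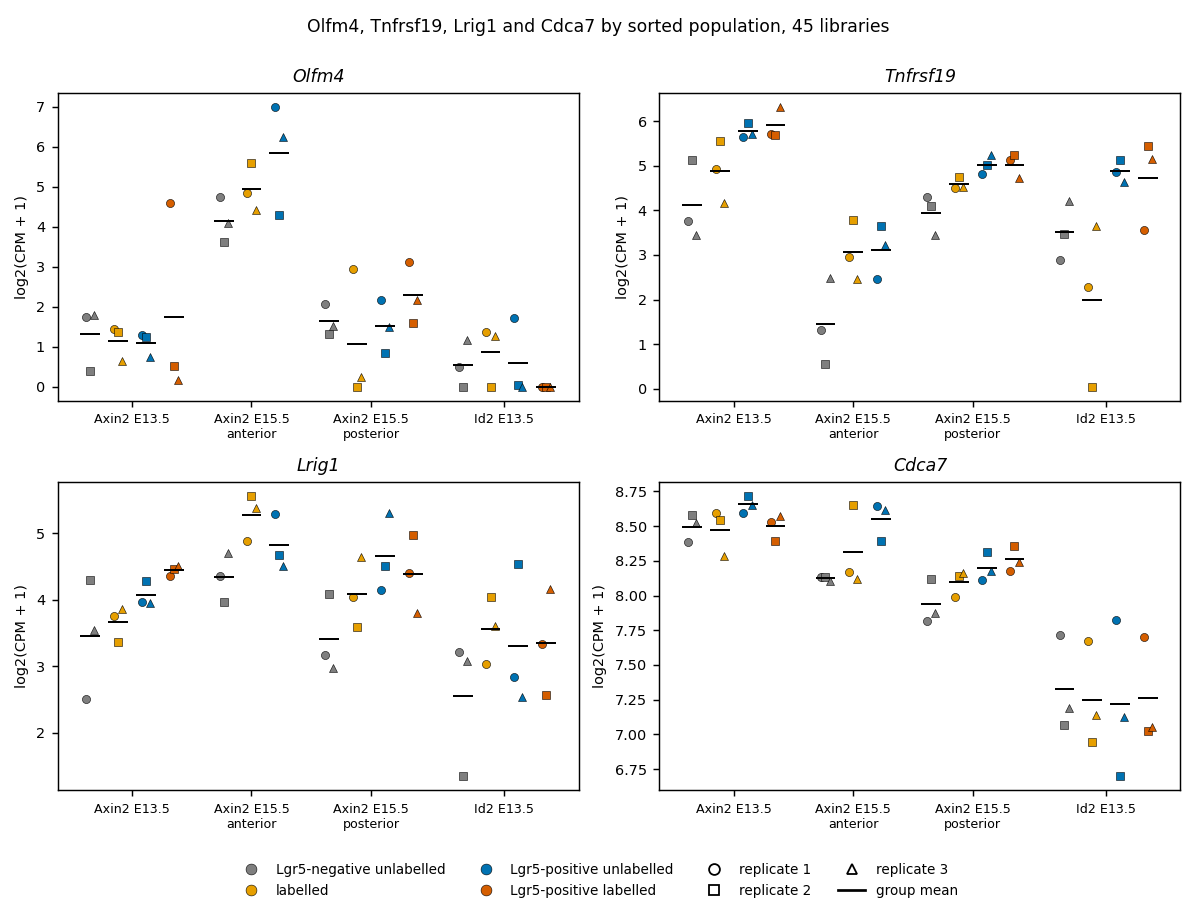
Level of Olfm4, Tnfrsf19, Lrig1 and Cdca7 in each of the 45 libraries, on a log scale of CPM + 1, with colours for the sorted population, symbols for the replicate number and bars for the group mean on that scale. Olfm4 was at 11.2 to 127 CPM in the anterior and at 0 to 6.74 CPM in the posterior libraries of the 3 populations at E15.5, and Tnfrsf19 was higher in the posterior part.

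**Figure D4:**
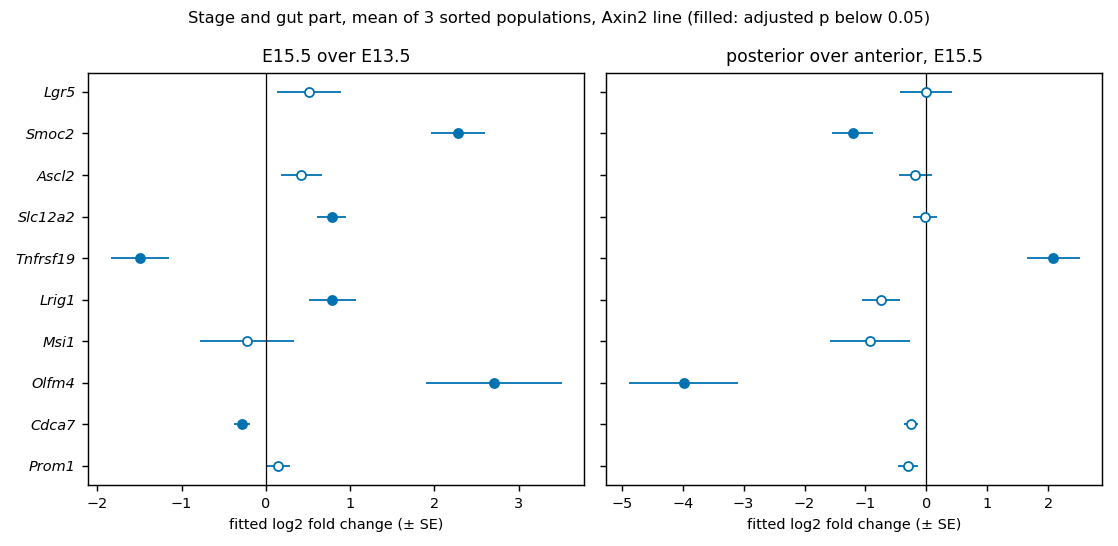
Fitted log2 fold changes with their SE for the 10 markers, E15.5 over E13.5 and posterior over anterior at E15.5, as the mean of 3 sorted populations of the Axin2 line; filled symbols have an adjusted p below 0.05. With stage 4 of the called markers were higher and 2 lower, and along the gut Tnfrsf19 was higher and Olfm4 and Smoc2 lower in the posterior part.

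A further 30 genes used as intestinal stem cell markers and 22 genes of the Wnt pathway were followed through the same comparisons, and 20 of the latter were tested. Of the 30, none was called higher in any of the 7 gate comparisons in edgeR. None of the Wnt genes was called in these comparisons in edgeR. Over the 7 comparisons, 0 to 13 of the 30 genes and 0 to 8 of the Wnt genes had an unadjusted p below 0.05. DESeq2 called 0 to 5 and 0 to 2, and limma voom called 0 to 14 and 0 to 4. These ranges are not set against the share of all genes in each comparison, so no result is read from them. With the unlabelled gate at E13.5 the median log2 fold change was 0.27 over the 30 genes and 0.19 over the Wnt genes. Sp5, a Wnt target, was in both lists and was not called with any gate, with 2.77 ± 1.09 CPM (n = 3) in Lgr5- and 19.1 ± 3.07 CPM (n = 3) in Lgr5+ cells at E13.5 (log2 fold change 2.76 ± 0.83, adjusted p = 0.15, edgeR).

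With stage 6 of the 30 genes rose and 9 fell, and 3 of the 20 Wnt genes rose and 7 fell, against 15.6% of all genes called higher and 17.9% called lower. Fstl1, a secreted glycoprotein related to follistatin, had the smallest adjusted p, with -3.54 ± 0.19 (adjusted p = 3.82e-17, edgeR). It moved from 86.5 ± 10.8 CPM (SD, n = 9 libraries of 3 populations) at E13.5 to 8.73 ± 5.95 CPM (n = 18 libraries). Mex3a, an RNA-binding protein, fell from 29.2 ± 4.76 CPM to 9.51 ± 2.40 CPM. Tcf7l1, the TCF factor that mostly represses Wnt targets, fell from 41.6 ± 12.3 CPM to 14.0 ± 4.88 CPM, and Myc rose from 193 ± 41.9 CPM to 362 ± 84.2 CPM. Along the gut Fstl1 was the 1 gene of the 30 that was called higher in the posterior intestine. It was at 4.35 ± 2.3 CPM (n = 9) in the anterior and 13.1 ± 5.17 CPM (n = 9) in the posterior libraries. Markers of differentiated cells rose between the stages, with 8 of 9 goblet cell genes, 9 of 10 enteroendocrine genes and 6 of 9 enterocyte genes called higher at E15.5. The summed mesenchymal level was lower at E15.5 in each population without overlap, at 299.5 to 360 CPM against 35.8 to 90.7 CPM in labelled, 131 to 165 CPM against 16.9 to 89.3 CPM in Lgr5- and 462 to 569 CPM against 39.2 to 225 CPM in Lgr5+ cells. Of the 10 mesenchymal genes, 2 were called lower (Vim and Col3a1), and the part of such cells in the changes with stage, among them those of Tnfrsf19 and Fstl1, was not tested.

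The genes with the pattern most like each of 4 markers were ranked by Pearson's r over the 15 group means of log2 CPM, centred within each setting, among 9289 well expressed genes. These group means share libraries and depth, and r is given as a description only. Lgr5 was the sort gene, so its pattern was largely fixed by the sort, and a high r with it can reflect the gate alone. For Lgr5 they were Slc12a2 (0.982), Smoc2 (0.971) and Kif12 (0.965). For Smoc2 they were Vav3 (0.983), Lgr5 (0.971) and Arhgef26 (0.966). For Ascl2 they were Pdgfa (0.986), Tspan1 (0.976) and Espn (0.975). Smoc2 and Lgr5 were thus each among the 3 genes nearest to the other. Vav3, a guanine nucleotide exchange factor, was at 9 ± 0.996 CPM (SD, n = 3) in Lgr5- and 207 ± 21.3 CPM (n = 3) in Lgr5+ unlabelled cells of the Axin2 line at E13.5. Pdgfa, the ligand of the PDGF alpha receptor, was at 38.8 ± 4.95 CPM against 155.2 ± 23.0 CPM (n = 3 each). For Olfm4 the nearest genes had lower values, with Alkbh8 (0.829) and Stau2 (0.780) at the head.

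Some markers varied by replicate number across all populations of a setting. In the Axin2 line at E13.5 replicate 2 had the lowest Lgr5 level in 4 of 4 populations, and replicate 1 had the lowest Smoc2 level in 4 of 4. Across the Id2 line replicate 1 had the highest Cdca7 level in 4 of 4 populations (203, 207, 209 and 225 CPM) and replicate 2 the lowest (122, 129, 133 and 103 CPM). In the posterior intestine Olfm4 was highest in replicate 1 and lowest in replicate 2 in 4 of 4 populations. Slc12a2 in the Id2 line was lowest in replicate 1 in 4 of 4. The labels do not say what a replicate number marks.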

How the data were processed

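The authors deposited whole-number read counts per gene, 1 table per library with 23366 genes and 5 closing rows of reads not assigned to a gene. Per the submitters' processing notes the build was mm9 and the tools included bcl2fastq 1.8.4, STAR 2.3.1z13, SAMtools 1.2, HTSeq 0.6.1p1 and DESeq2 1.14.1; the annotation is not given in the sources used here, nor is the strand setting. Per the labels' protocols, cDNA was amplified for 15 cycles, with no molecular identifiers, so intervals and floors cover counting error only.

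The closing rows, 23.9 to 29.4% of reads in Axin2 libraries and 33.4 to 49.0% in Id2 libraries, were left out of library sizes, CPM and tests. CPM were computed from column totals with no further scaling. Differences were tested with edgeR 4.0.16 (limma 3.58.1, R 4.3.3; quasi-likelihood, robust, TMM scaling) on 15 group means with 30 residual degrees of freedom, a filter of 10 counts (minimum total 15), and prior count 2; 15513 genes were tested. Interactions were contrasts of the same fit. The test was run on simulated counts with changed genes of known size. DESeq2 1.42.0, limma voom with sample weights, RLE scaling, no filter, the libraries of a contrast alone, a replicate block and leaving out each library were the alternatives.

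The 10 markers, the gene lists and the tests were chosen with earlier results of these data known. All 10 markers are named, with up to 4 called genes of a list by smallest adjusted p, the 3 genes most like 4 of the markers, and cell type markers where they moved with a comparison; Sp5, Pdgfra, Col1a1, Col1a2 and Hbb-bh1 were named after their values were seen. Some genes that these rules name are not reported here. No pair of replicates agreed within sampling noise (chi-square per degree of freedom from 14.3 to 346). Same-numbered libraries were called paired where all 3 correlations of their deviations, over 9289 genes, exceeded 0.1. By that measure, read from the data alone, numbers paired libraries in 8 of the 14 comparisons of 2 groups, among them the unlabelled gate at E13.5 in the Axin2 line (0.236 to 0.727) and in the Id2 line (0.28 to 0.499).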

Additional observations from a re-analysis of the deposited data

Results flagged for a closer look

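The effect of the Lgr5 gate on Smoc2 differed between stages. In unlabelled cells of the Axin2 line, the log2 gate effect was 6.17 ± 0.71 (SE) at E13.5, 1.66 ± 0.57 in the anterior and 2.50 ± 0.59 in the posterior intestine at E15.5. The E15.5 mean minus the E13.5 value was -4.09 ± 0.75 (adjusted p = 0.00779, edgeR). Smoc2 lay at 1.57 to 4.5 CPM in the Lgr5- libraries of E13.5 and at 16.6 to 98.1 CPM in those of E15.5. The call was lost when Lgr5- replicate 1 of E13.5 was left out (adjusted p = 0.0503, edgeR).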

How the results depend on the processing

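The number of the 10 markers called, Lgr5 included, was compared between settings in 18 comparisons. With RLE scaling it stayed within 1.5 times the reported count in 18 of 18, and without the filter in 17, the exception being the unlabelled gate in the posterior intestine (0 in place of 1). That comparison also gave 2 with DESeq2 and 3 with limma voom, with the replicate block and with its own libraries alone. The change of the gate effect with stage gave 2 with DESeq2, 2 with the replicate block and 2 with its own libraries (Ascl2 beside Smoc2), and 3 with limma voom, in place of 1. DESeq2 gave 1 in place of 0 for the unlabelled gate in the Id2 line, for the label within Lgr5+ Id2 cells and for the gate effect between lines. Limma voom gave 1 in place of 0 for the posterior labelled gate and for labelled against Lgr5- cells at E13.5, 6 in place of 3 between gut parts, and 0 in place of 4 for the labelled gate in the Id2 line. Fitted to their own libraries alone, the labelled gates gave 0 in place of 3 (Axin2 line, E13.5) and 0 in place of 4 (Id2 line), with fewer samples for the spread. For the other changes the cause was not tested. The replicate block, with pairing read from the data, changed no marker's call in the 8 comparisons that were paired by that measure. Elsewhere the block also called Lgr5 with stage (log2 fold change 0.83, adjusted p = 0.0186, edgeR, in place of 0.51 and 0.33), Lgr5 in the labelled gate of the Axin2 line at E13.5 (adjusted p = 0.00233, edgeR) and Cdca7 between gut parts (adjusted p = 0.0248, edgeR). Leaving out 1 library at a time gave 3 to 4 for the unlabelled gate at E13.5 in the Axin2 line, 0 to 1 for the posterior one, 1 to 3 and 1 to 5 for the labelled gates of the Axin2 and Id2 lines at E13.5, 5 to 6 for stage, 2 to 3 for gut part, 0 to 2 for the gate effect with stage, 0 to 1 for the gate effect between lines, and 0 in each of the other 10 comparisons. No called value changed sign in any of these fits. Msi1, at no more than 46 reads in any library, and Olfm4, at 0 reads in 7 libraries, had the largest spread of the 10, and differences of these genes within their SE were not detectable.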
